A study of Mus musculus with 22 samples.

Results

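The ferroptosis regulators described here are 10 mouse genes named by symbol: Slc7a11, Slc3a2, Gpx4, Acsl4, Lpcat3, Aifm2, Gch1, Dhodh, Ptgs2 and Alox5. All 10 were present among the 55401 genes counted in hepatocytes and the 55573 counted in hepatic stellate cells, and they were chosen by their known roles, with earlier results of these data known. RNA was sequenced from primary cells of wild-type C57BL/6 mice kept on a chow diet. Hepatocytes, the parenchymal cells of the liver, received 100 uM DFO (deferoxamine, an iron chelator) in 6 libraries or placebo in 6 control libraries. Hepatic stellate cells, the vitamin A-storing cells that make collagen in fibrosis, received 100 uM iron in 5 libraries or placebo in 5 control libraries. Treatment began 24 h after plating and lasted 24 h. The iron compound is not named in the labels, and there was no DFO arm for stellate cells or iron arm for hepatocytes. The protocol text speaks of 4 biological replicates per group, which does not match the 6 and 5 libraries labelled, and no label ties a library to an animal or culture, so p-values measure the spread between libraries, which may be technical.

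Ferroptosis is a form of cell death in which iron catalyses the peroxidation of polyunsaturated phospholipids until membranes fail. Cells oppose it along several routes: cystine taken up in exchange for glutamate feeds glutathione, which the selenoenzyme GPX4 uses to reduce lipid hydroperoxides, while reduced ubiquinone and tetrahydrobiopterin trap lipid radicals directly. Hepatocytes hold much of the body's iron, and stellate cells are studied in this context because their death limits scar formation. Transcript levels of these genes do not measure peroxidation, cell death or enzyme activity, none of which was assayed here.

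The promoters of 3 members are shown because they hold the short motifs of transcription routes that iron withdrawal or amino acid shortage is known to use. Each is the RefSeq promoter (GRCm38.p6), 250 bases before to 50 bases after the annotated start, printed 5′ to 3′ on the gene's strand with the motif in capitals. The motifs searched on both strands in the promoters of 9 members were ACGTG (the core of the hypoxia response element), TGACNNNGC (the core of the antioxidant response element) and TGATGNAA (the core of the amino acid response element). Slc7a11 held TGATGNAA at 2 places, 66 and 47 bases before the start, on opposite strands (chr3:50443564-50443863, minus strand). Slc3a2 held ACGTG once, 164 bases before the start (chr19:8713848-8714147, minus strand), at a RefSeq start that lies inside the gene's span in the count table. Ptgs2 held ACGTG on both strands of an overlapping palindrome that begins 16 bases after the start (chr1:150099781-150100080, plus strand).
Slc7a11: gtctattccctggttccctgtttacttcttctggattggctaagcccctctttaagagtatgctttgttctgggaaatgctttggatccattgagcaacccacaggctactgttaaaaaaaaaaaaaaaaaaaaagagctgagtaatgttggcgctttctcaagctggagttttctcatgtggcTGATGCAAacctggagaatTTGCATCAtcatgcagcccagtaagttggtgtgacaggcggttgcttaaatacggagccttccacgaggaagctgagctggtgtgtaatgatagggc
Slc3a2: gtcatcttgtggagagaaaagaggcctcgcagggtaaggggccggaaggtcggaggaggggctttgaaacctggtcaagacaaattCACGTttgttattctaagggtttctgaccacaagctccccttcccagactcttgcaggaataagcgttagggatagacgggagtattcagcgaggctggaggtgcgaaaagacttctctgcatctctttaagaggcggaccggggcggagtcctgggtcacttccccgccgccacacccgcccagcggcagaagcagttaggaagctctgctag
Ptgs2: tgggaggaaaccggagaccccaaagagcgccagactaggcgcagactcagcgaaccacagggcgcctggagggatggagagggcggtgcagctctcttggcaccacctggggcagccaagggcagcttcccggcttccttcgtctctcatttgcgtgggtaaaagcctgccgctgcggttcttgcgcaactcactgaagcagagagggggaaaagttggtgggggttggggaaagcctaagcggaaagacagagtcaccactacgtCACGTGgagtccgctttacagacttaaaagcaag
Of the 32851 mouse promoters of this length, 19.6% hold ACGTG, 12.4% hold TGACNNNGC and 3.97% hold TGATGNAA. None of the 3 motifs was found in the windows of Gpx4, Acsl4, Lpcat3, Aifm2, Gch1 or Alox5, and Dhodh was not matched. A match is a string of letters, not a measured binding site, and the changes of the 3 genes shown are given below.

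Levels between genes are compared in the deposited FPKM, which divides the count by exonic length and by library total. In hepatocytes Gpx4 stood highest, at 123.1 ± 10.6 FPKM with DFO and 139.0 ± 9.48 FPKM in controls (mean ± SD, n = 6 each). Slc3a2 followed, at 84.2 ± 6.80 FPKM with DFO and 83.9 ± 3.95 FPKM in controls. Acsl4 was the third gene with DFO (35.3 ± 3.50 FPKM) and the fourth in controls (24.0 ± 0.98 FPKM), where Lpcat3 stood above it (29.5 ± 0.93 FPKM, against 24.1 ± 1.41 FPKM with DFO). Below them came Gch1, Aifm2, Slc7a11, Ptgs2 and Dhodh, with Alox5 last at 0.42 ± 0.07 FPKM with DFO and 0.22 ± 0.03 FPKM in controls. In control hepatocytes the ranges of only 1 pair of neighbours in this order overlapped, Slc7a11 and Ptgs2, and with DFO none did.

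Stellate cells carried the same genes in other proportions. Of the stellate libraries, 3 stood apart from the rest of their group, as described further on, and levels are given with and without them (n = 5 each, and n = 3 with iron and 4 in controls). Ptgs2 reached 91.3 ± 67.2 FPKM with iron and 77.6 ± 5.53 FPKM in control stellate cells, against 8.62 ± 0.86 FPKM in control hepatocytes. Without the 3 libraries it was at 135.7 ± 36.8 FPKM with iron and 76.2 ± 5.39 FPKM in control stellate cells; iron library 5, 1 of the 3, held 7.04 FPKM, below every control hepatocyte library. Gch1 ran the other way, at 2.27 ± 0.66 FPKM with iron and 4.04 ± 0.58 FPKM in control stellate cells (2.02 ± 0.79 and 4.26 ± 0.35 FPKM without the 3), against 14.2 ± 0.73 FPKM in control hepatocytes. Slc7a11 was at 2.06 ± 0.74 FPKM with iron and 4.64 ± 1.40 FPKM in control stellate cells (2.56 ± 0.31 and 4.05 ± 0.56 FPKM without the 3), against 10.4 ± 0.80 FPKM in control hepatocytes. With all stellate libraries, more neighbours in the order overlapped. In control stellate cells the ranges of Gpx4 and Ptgs2, Ptgs2 and Slc3a2, Lpcat3 and Acsl4, Aifm2 and Slc7a11, and Slc7a11 and Gch1 overlapped, and with iron every pair of neighbours overlapped except Lpcat3 and Aifm2, Aifm2 and Dhodh, and Slc7a11 and Alox5. Without the 3 libraries, the overlaps left were Ptgs2 and Gpx4, Gpx4 and Slc3a2, Dhodh and Slc7a11, and Slc7a11 and Gch1 with iron, and Slc3a2 and Ptgs2, and Gch1 and Slc7a11 in controls. The tables of the cell types were normalised apart, so these levels are a description across cell types and carry no test.

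**Figure D1:**
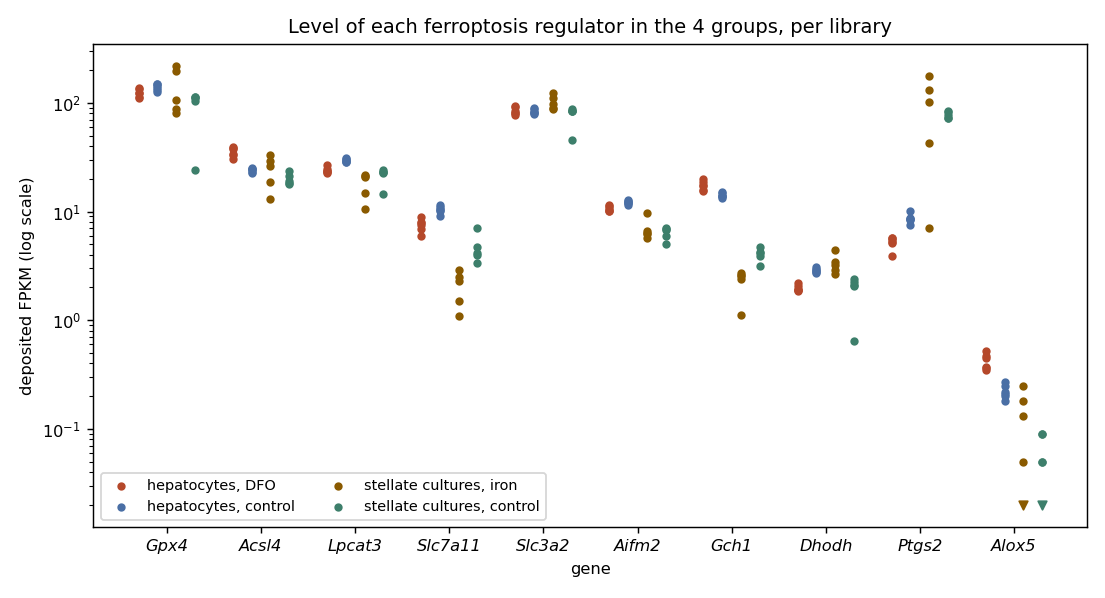
Deposited FPKM of the 10 genes on a log axis in every library of DFO and control hepatocytes and of iron and control stellate cells; triangles mark values listed at 0. Gpx4 and Slc3a2 sit at the top in hepatocytes, Alox5 lies below the others in all 4 groups, and Ptgs2 lies higher in stellate cells than in control hepatocytes in every library except iron library 5.

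The hepatocyte comparison concerns iron removal. Transcripts of 3 of the 10 genes rose with DFO (Acsl4, Gch1 and Alox5) and 5 fell (Slc7a11, Lpcat3, Aifm2, Dhodh and Ptgs2) at an edgeR quasi-likelihood Benjamini-Hochberg adjusted p under 0.05, while Gpx4 and Slc3a2 did not pass. DFO moved a large part of the transcriptome: 27.9% of the 15660 tested genes rose and 30.1% fell. The groups did not overlap in 7 of the 10 genes, against 35.9% of all tested genes. The median log2 change was -0.14 over the 10 genes and -0.0012 over all tested genes. Values below are CPM, counts scaled to a common library total with TMM normalisation, which compare a gene with itself between libraries, given as the lowest, median and highest of 6 libraries.

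Slc7a11 encodes the cystine/glutamate exchanger itself (ENSMUSG00000027737, chromosome 3, 49892526 to 50443614, minus strand, mm10). It had 84.5, 108.5 and 123.4 CPM in DFO hepatocytes, against 125.6, 145.4 and 155.0 CPM in control hepatocytes. Every DFO library lay below every control library, and the gene fell by 0.44 ± 0.08 on the log2 scale (SE; edgeR adjusted p = 0.000109). Slc3a2, the heavy chain that holds this exchanger and several amino acid carriers in the membrane (ENSMUSG00000010095, chromosome 19, 8706882 to 8723369, minus strand), had 271.2, 293.7 and 337.4 CPM with DFO, against 274.3, 291.0 and 308.9 CPM in controls. The groups lay over each other, with a log2 change of 0.05 ± 0.06 (edgeR adjusted p = 0.514). The 2 subunits of the exchanger thus gave a called decrease in 1 and a change within the spread in the other; the difference between them was not tested.

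Gpx4, the phospholipid hydroperoxide reductase at the end of this route (ENSMUSG00000075706, chromosome 10, 80047166 to 80056439, plus strand), had 189.4, 215.9 and 239.7 CPM with DFO, against 209.4, 238.5 and 260.0 CPM in controls. The ranges overlapped widely and the log2 change was -0.14 ± 0.07 (edgeR adjusted p = 0.0922). Counts of Gpx4 are uncertain, since its pseudogene Gpx4-ps2 was credited with 0.678 to 0.767 times as many counts in each hepatocyte library. The pseudogene's own log2 change was -0.10 ± 0.07 (edgeR adjusted p = 0.219), and the summed counts of both gave -0.12 ± 0.07 (edgeR adjusted p = 0.128). With library totals only, Gpx4 passed the threshold (log2 change -0.17, edgeR adjusted p = 0.0207).

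Of 21 other tested genes of the cysteine and glutathione route, 8 rose and 5 fell with DFO at the same threshold (median log2 change 0.04). Cth, which releases cysteine from cystathionine, fell by 1.30 ± 0.05 on the log2 scale to 36.3 CPM, against 89.5 CPM in controls. Slc1a5, a glutamine carrier, fell by 1.05 ± 0.12. Gls2, the liver glutaminase, rose (log2 change 0.76 ± 0.06), as did the neutral amino acid carrier Slc7a8 (0.83 ± 0.08), which pairs with Slc3a2. Among 19 tested genes of selenoprotein synthesis and of the other glutathione peroxidases, 5 rose and 8 fell (median -0.05). Gpx7, a peroxidase of the endoplasmic reticulum, fell by 1.34 ± 0.09 and Gpx3, the plasma glutathione peroxidase, by 0.74 ± 0.07. Selenop, the plasma selenium carrier that hepatocytes secrete, rose to 4438 CPM with DFO, against 3261 CPM in controls (log2 change 0.44 ± 0.04), and Selenok, a selenoprotein of the endoplasmic reticulum, rose by 0.54 ± 0.06.

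The genes that supply the peroxidisable lipid went in opposite directions. Acsl4, which activates arachidonic and adrenic acid for phospholipids (ENSMUSG00000031278, chromosome X, 142317993 to 142390535, minus strand), had 166.7, 196.2 and 212.4 CPM with DFO, against 120.0, 128.2 and 133.3 CPM in controls. The lowest DFO library stood above the highest control library. This was a 1.51-fold rise (log2 change 0.59 ± 0.06, edgeR adjusted p = 1.30e-07), the smallest p of the 10 genes. Lpcat3, which inserts such acyl chains into lysophospholipids (ENSMUSG00000004270, chromosome 6, 124663027 to 124704418, plus strand), had 74.0, 78.9 and 88.9 CPM with DFO, against 90.1, 95.9 and 99.9 CPM in controls. The groups were apart by a narrow margin, a decrease of 0.26 ± 0.05 (edgeR adjusted p = 0.000288). Its last 334 bases overlap Emg1 on the opposite strand, and since the strand setting of the counting is not given, reads there cannot be told apart.

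Of 22 other tested genes of fatty acid and phospholipid supply, not only of polyunsaturated lipid, 4 rose and 12 fell (median log2 change -0.22). Mboat1, a lysophospholipid acyltransferase, fell by 1.31 ± 0.07 to 11.6 CPM with DFO, against 28.9 CPM in controls, and Lpcat4 fell by 1.62 ± 0.11 to 3.63 CPM, against 11.2 CPM. Tmem189 (also called Peds1), the desaturase that completes plasmalogens, rose to 60.7 CPM with DFO, against 33.1 CPM in controls (log2 change 0.87 ± 0.06). Mboat2, another acyltransferase of this family, rose to 1.06 CPM with DFO, against 0.07 CPM in controls (edgeR adjusted p = 1.40e-08), at very low counts in controls.

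The 3 suppressors that act beside GPX4 also differed among themselves. Gch1, the first and rate-limiting enzyme of tetrahydrobiopterin synthesis (ENSMUSG00000037580, chromosome 14, 47153895 to 47189413, minus strand), had 98.2, 109.9 and 127.4 CPM with DFO, against 83.1, 87.2 and 92.9 CPM in controls. All DFO libraries lay above all controls, a 1.26-fold rise (log2 change 0.33 ± 0.06, edgeR adjusted p = 0.000167). Dhodh, the pyrimidine synthesis enzyme that reduces ubiquinone at the inner mitochondrial membrane (ENSMUSG00000031730, chromosome 8, 109591343 to 109608673, minus strand), had 11.9, 12.2 and 14.2 CPM with DFO, against 16.9, 18.1 and 19.5 CPM in controls. It fell by 0.51 ± 0.06 on the log2 scale with a clear gap between the groups (edgeR adjusted p = 1.39e-06). Aifm2, also called FSP1, the reductase that regenerates ubiquinol at the plasma membrane (ENSMUSG00000020085, chromosome 10, 61715263 to 61739260, plus strand), had 41.9, 44.4 and 48.6 CPM with DFO, against 45.6, 49.4 and 53.1 CPM in controls. Its groups overlapped, and the decrease of 0.14 ± 0.05 (edgeR adjusted p = 0.0272) lost its call without any of 5 single libraries (controls 1 and 2, DFO 1, 2 and 4; adjusted p 0.0518 to 0.0660).

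Other genes of a list of ubiquinone, biopterin and pyrimidine synthesis, which also holds Sc5d of cholesterol synthesis, leaned down with DFO. Of 23 tested, 1 rose and 13 fell (median log2 change -0.21). Those with the smallest p included the enzymes on either side of Dhodh in pyrimidine synthesis. Cad, which starts the pathway, fell by 1.19 ± 0.08 to 54.5 CPM with DFO, against 124.8 CPM in controls, and Umps, which completes it, fell by 0.64 ± 0.05 to 44.9 CPM, against 70.1 CPM. Pdss1, which makes the ubiquinone side chain, fell by 1.04 ± 0.08.

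Ptgs2, or cyclooxygenase 2, makes prostaglandins from arachidonic acid, and its transcript is widely read as a marker of ferroptosis (ENSMUSG00000032487, chromosome 1, 150100031 to 150108227, plus strand). It had 18.0, 25.1 and 26.3 CPM with DFO, against 33.8, 38.9 and 44.7 CPM in controls. All DFO libraries lay below all controls, with DFO library 6 lowest, and the gene fell by 0.70 ± 0.08 on the log2 scale (edgeR adjusted p = 1.96e-06), the largest decrease among the 10 genes. Alox5, the lipoxygenase that starts leukotriene synthesis and is known mainly from myeloid cells (ENSMUSG00000025701, chromosome 6, 116410077 to 116461178, minus strand), had 1.43, 1.70 and 2.18 CPM with DFO, against 0.73, 0.88 and 1.08 CPM in controls. That is 51 to 87 counts per DFO library and 20 to 47 per control library, a 1.94-fold rise (log2 change 0.96 ± 0.15, edgeR adjusted p = 4.17e-05).

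Of 16 other tested genes of lipid peroxidation and eicosanoid synthesis, 8 rose and 4 fell (median log2 change 0.22). The prostaglandin E synthases split: Ptges rose to 2.07 CPM with DFO, against 0.61 CPM in controls (log2 change 1.84 ± 0.23), and Ptges2 fell by 0.55 ± 0.07. Hpgd, which inactivates prostaglandins, rose by 0.33 ± 0.04, and Aloxe3, a lipoxygenase-family hydroperoxide isomerase, rose by 1.24 ± 0.17. Among 16 genes of the iron pool, 7 rose and 3 fell (median 0.09). Tfrc, the transferrin receptor, whose mRNA is stabilised when iron is scarce, rose to 443.3 CPM with DFO, against 112.8 CPM in controls (log2 change 1.97 ± 0.08, edgeR adjusted p = 1.13e-12). Slc11a2, an iron importer, rose by 0.33 ± 0.04, Fth1, the ferritin heavy chain, which has near-identical pseudogene copies, rose by 0.35 ± 0.07, and Aco1, an iron-sensing RNA-binding aconitase, fell by 0.33 ± 0.04. Of 12 tested genes used elsewhere as ferroptosis markers or modulators, 3 rose and 4 fell (median -0.04). The stress gene Ddit4 rose to 101.3 CPM with DFO, against 44.8 CPM in controls (log2 change 1.18 ± 0.06), while Hspb1 (-0.63 ± 0.08), Acsf2 (-0.45 ± 0.05) and Emc2 (-0.40 ± 0.05) fell. Over all 129 tested genes of these lists, 36 rose and 49 fell, which is 65.9%, beside 58.0% of all tested genes.

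The cultures expressed hepatocyte markers throughout, with 12 of them summing to 28199 to 33261 CPM with DFO and 23573 to 27966 CPM in controls, and none at 0 counts. The sum is carried by Alb and Trf, which rose (log2 changes 0.36 ± 0.06 and 0.28 ± 0.05); of the 12 markers 3 rose and 7 fell (median log2 change -0.21), among them Hnf4a, a hepatocyte transcription factor, at 139.7 to 171.1 CPM with DFO, against 295.3 to 319.4 CPM in controls. Macrophage markers moved with DFO as well: 10 of 13 tested rose and none fell, and 14 summed to 275.2 to 368.1 CPM with DFO, against 183.7 to 213.8 CPM in controls, with Timd4 at 0 counts in 1 control library. Endothelial markers summed to 45.5 to 62.0 CPM with DFO, against 40.1 to 47.5 CPM in controls (3 of 12 rose and 1 fell), and cholangiocyte markers to 1907 to 2118 CPM, against 2144 to 2620 CPM (1 of 4 tested rose and 2 fell). Spp1 carried most of the cholangiocyte sum, at 1653 to 1856 CPM with DFO and 1909 to 2369 CPM in controls. Neutrophil and lymphocyte markers summed to at most 1.52 and 1.10 CPM in any library. Of 7 tested stellate markers, 4 rose and 1 fell, and 12 summed to 90.3 to 148.2 CPM with DFO, against 77.2 to 96.5 CPM in controls. Lox carried most of this sum, at 77.2 to 111.9 CPM with DFO and 56.5 to 70.2 CPM in controls. Col1a1 was lower with DFO, at 5.94 to 8.25 CPM, against 15.0 to 23.0 CPM in controls. The part of these other cells in the changes of Alox5 and of the other genes was not tested; in bulk RNA, fewer cells of a type and less RNA per cell cannot be told apart.

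**Figure D2:**
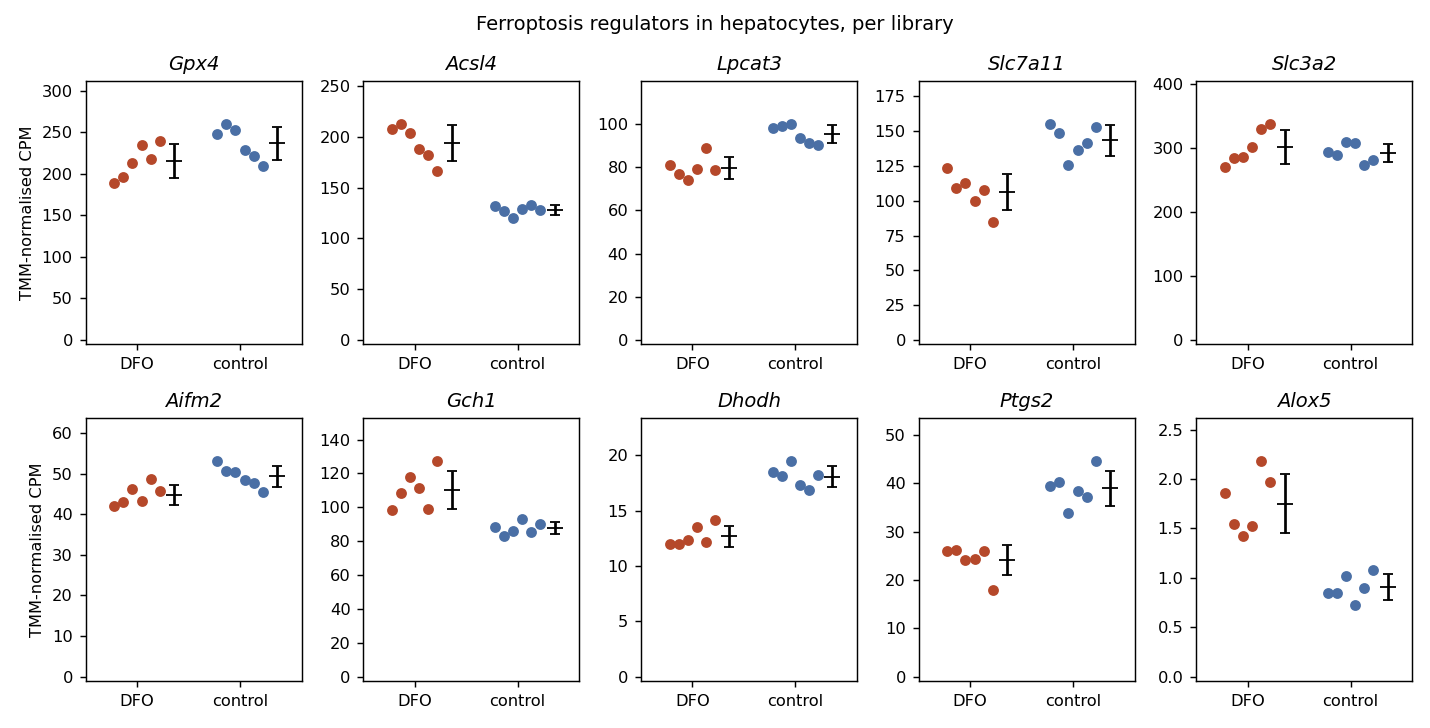
TMM-normalised CPM of the 10 genes in each of 6 DFO and 6 control hepatocyte libraries, 1 panel per gene, each axis starting near 0; black marks are the mean and SD. The groups do not overlap for Acsl4, Gch1 and Alox5 (DFO above) and for Slc7a11, Lpcat3, Dhodh and Ptgs2 (DFO below).

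By the likeness of their centred log2 CPM over the 12 hepatocyte libraries, the genes closest to Acsl4 among 13158 other protein-coding genes were Arhgap29, Clcn3 and Stam, at a root-mean-square difference of 0.04, 0.05 and 0.05 on the log2 scale. Among the 3 closest to Dhodh were Aldh7a1 and Rcc2 (0.05 each). Those closest to Ptgs2 were Atf7ip, Golm1 and Myof (0.07, 0.08 and 0.08). The likeness rests largely on a like difference between the DFO and control groups, with log2 changes of 0.52 to 0.57 in the first set, -0.50 to -0.49 in the second and -0.73 to -0.65 in the third.

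The stellate comparison concerns added iron, and 3 of its 10 libraries stood apart from the rest of their group. The mean exonic length of the gene behind a count was 4.27 kb in iron library 3 and 4.02 kb in iron library 5, and 7.23 kb in control library 3, against 5.16 to 5.69 kb in the other 7. Relative to the median of their group among those 7, Gpx4, with 1724 exonic bases, was at 2.96 and 2.67 times in iron libraries 3 and 5 and at 0.241 times in control library 3. Slc7a11, with 13922 exonic bases, moved oppositely, at 0.714 and 0.515 times in the iron libraries and 1.93 times in control library 3. Length did not order all genes: Ptgs2, with 4580 bases, was at 0.386 and 0.0637 times in iron libraries 3 and 5, and Dhodh, with 6326 bases, at 1.42 and 1.82 times in them and 0.331 times in control library 3. The cause of these shifts was not tested. Tests of stellate cells are therefore given with all 10 libraries and with the 7 that remain without these 3. The 3 were set aside because earlier results of these same data showed them to stand apart. That choice removes spread within the groups, so p-values in the 7 may be too small and groups may separate too easily.

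**Figure D3:**
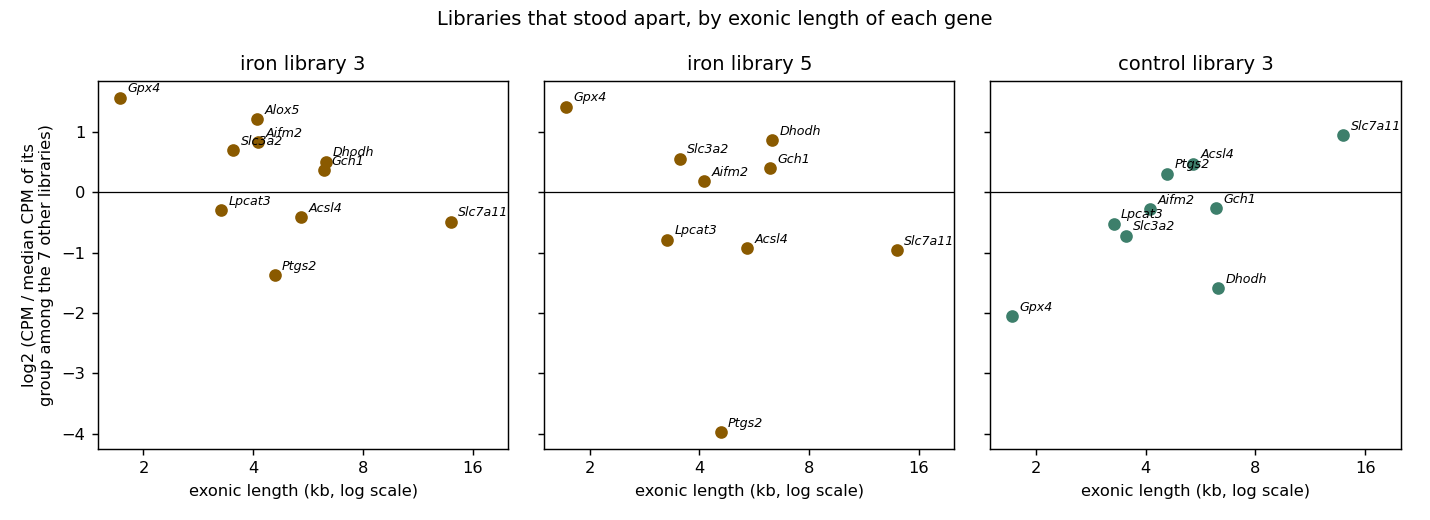
Log2 ratio of each gene's CPM in iron libraries 3 and 5 and control library 3 to the median of its group among the 7 other libraries, against exonic length in kb on a log axis; 1 point is 1 gene, and genes at 0 counts are left out. Gpx4, the shortest gene, lies at 1.56 and 1.41 in the iron libraries and at -2.05 in control library 3, and Slc7a11, the longest, lies on the other side of 0 in each panel.

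With all 10 libraries, 1 of the 9 tested genes fell with iron (Slc7a11) and 0 rose, where 3.37% of 15502 tested genes fell and 4.05% rose. At an unadjusted p under 0.05, 1 was higher and 2 were lower, and DESeq2 called 0 higher and 2 lower. The groups did not overlap in 3 of the 9 genes, against 21.9% of all tested genes. With the 7 libraries, 3 rose (Acsl4, Dhodh and Ptgs2) and 4 fell (Slc7a11, Gpx4, Lpcat3 and Gch1), where 18.3% of 16287 tested genes rose and 19.8% fell, and the groups did not overlap in 7 of the 9, against 43.8% of all tested genes. The median log2 change over the 9 genes was 0.16 in the 10 libraries and -0.16 in the 7, against -0.06 and 0.0064 over all tested genes. Alox5 did not pass the filter on low counts, with 16, 20, 23, 3 and 0 counts in iron libraries 1 to 5 and 6, 8, 0, 10 and 5 in control libraries 1 to 5. Fitted without that filter, its log2 change was 1.15 ± 1.04 (edgeR adjusted p = 0.493) in the 10 libraries and 0.82 ± 0.67 (edgeR adjusted p = 0.453) in the 7.

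Slc7a11 fell in both fits. It had 32.1, 37.9, 22.9, 30.4 and 16.5 CPM in iron libraries 1 to 5, against 65.1, 54.6, 107.1, 45.9 and 56.5 CPM in control libraries 1 to 5. No iron library reached the lowest control library, with or without the 3 that stood apart. It fell by 1.23 ± 0.29 on the log2 scale in the 10 libraries (edgeR adjusted p = 0.0267) and by 0.73 ± 0.12 in the 7 (edgeR adjusted p = 0.000276). Of the libraries that stood apart, iron 3 and 5 were the lowest with iron and control 3 the highest control, so they widened the difference in the 10. The call in the 10 libraries was lost when control 1, 2 or 5 or iron 3 or 4 was left out (adjusted p 0.0509 to 0.0717), while in the 7 it held under each such omission (highest adjusted p 0.00263). Its partner Slc3a2 had 286.3, 292.8, 475.1, 326.7 and 430.0 CPM with iron, against 307.5, 289.6, 176.2, 291.0 and 290.7 CPM in controls. Its high and low values sat in the libraries that stood apart, and neither fit called it (log2 change 0.42 ± 0.22, edgeR adjusted p = 0.228 in the 10; 0.03 ± 0.07, edgeR adjusted p = 0.757 in the 7).

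Gpx4 changed sign with the libraries used. It had 139.3, 131.3, 411.9, 175.7 and 371.1 CPM in iron libraries 1 to 5, against 192.7, 192.4, 45.7, 176.6 and 187.2 CPM in control libraries 1 to 5. Iron libraries 3 and 5 lay far above every control and control library 3 far below every other library, giving a log2 change of 0.63 ± 0.44 (edgeR adjusted p = 0.373) in the 10. In the 7 the gene fell by 0.34 ± 0.09 (edgeR adjusted p = 0.0115), and without iron library 1 or 2 the call was lost (adjusted p = 0.0555 and 0.0634). Gpx4-ps2 was credited with 0.910 to 1.01 times as many counts as Gpx4 in the 7 libraries and with up to 1.56 times in the 10. In the 7, the pseudogene's log2 change was -0.28 ± 0.11 (edgeR adjusted p = 0.0598) and the sum of both fell by 0.31 ± 0.10 (edgeR adjusted p = 0.0272).

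Of 22 other tested genes of the cysteine and glutathione route, 1 rose in the 10 libraries (median log2 change -0.15), and 4 rose and 8 fell in the 7 (median -0.19). Slc7a8 rose in both, to 31.7 CPM with iron against 3.53 CPM in controls in the 7 (log2 change 3.18 ± 0.20, and 2.35 ± 0.52 in the 10). In the 7 libraries, Gclc, which catalyses the first step of glutathione synthesis, fell by 0.86 ± 0.10 and Ggt1, which breaks glutathione down outside the cell, by 1.40 ± 0.16, while Slc38a1, a glutamine carrier, rose by 1.23 ± 0.15. In the 10 these 3 did not pass, with log2 changes of -1.39 ± 0.58 for Gclc, -0.16 ± 0.50 for Ggt1 and 0.68 ± 0.42 for Slc38a1 (edgeR adjusted p 0.153 to 0.860). Among 19 tested selenoprotein and peroxidase genes, 2 rose and 1 fell in the 10 libraries (median 0.30), and 4 rose and 5 fell in the 7 (median 0.05). Gpx1, the cytosolic glutathione peroxidase, rose in both, to 424.9 CPM with iron against 220.8 CPM in controls in the 7 (log2 change 0.94 ± 0.09, and 1.99 ± 0.47 in the 10), as did Selenow, a small selenoprotein (1.02 ± 0.11 in the 7 and 2.47 ± 0.58 in the 10). Selenop and its receptor Lrp8 fell by 0.76 ± 0.07 and 0.55 ± 0.08 in the 7. In the 10 they did not pass, with log2 changes of -1.22 ± 0.59 and -0.79 ± 0.22 (edgeR adjusted p = 0.204 and 0.0526).

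Acsl4 had 147.5, 168.4, 110.3, 135.3 and 77.3 CPM in iron libraries 1 to 5, against 102.7, 113.3, 139.2, 98.2 and 95.4 CPM in control libraries 1 to 5. Iron libraries 1, 2 and 4 stood above controls 1, 2, 4 and 5, and the 3 remaining libraries went against that order. The log2 change was 0.22 ± 0.22 in the 10 (edgeR adjusted p = 0.531), and in the 7 the gene rose by 0.55 ± 0.09 (edgeR adjusted p = 0.000246). Lpcat3 had 64.9, 63.2, 52.8, 67.7 and 37.6 CPM with iron, against 75.0, 78.2, 51.7, 72.6 and 73.3 CPM in controls. Its log2 change was -0.29 ± 0.20 in the 10 (edgeR adjusted p = 0.357). It fell by 0.20 ± 0.07 in the 7 (edgeR adjusted p = 0.0304), a call that was lost without control 1, 2 or 4 or iron 1 or 2 (adjusted p 0.0677 to 0.113). Of the other genes of fatty acid and phospholipid supply, 1 of 22 tested rose and 3 fell in the 10 libraries (median -0.19). In the 7, 3 of 23 rose and 6 fell (median -0.06). The desaturases Fads2, Fads1 and Scd2, the last a maker of monounsaturated chains, fell in both. In the 7, Fads2 fell by 1.12 ± 0.08 to 64.5 CPM with iron, against 140.0 CPM in controls, Fads1 by 0.67 ± 0.06 and Scd2 by 0.62 ± 0.07, and in the 10 they fell by 0.85 ± 0.20, 0.69 ± 0.14 and 1.13 ± 0.31. The acyltransferase Agpat3 fell by 0.46 ± 0.06 in the 7, with a log2 change of -0.13 ± 0.19 in the 10 (edgeR adjusted p = 0.679).

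Gch1 had 13.9, 14.9, 17.9, 6.63 and 18.3 CPM in iron libraries 1 to 5, against 25.9, 23.9, 21.7, 26.0 and 28.9 CPM in control libraries 1 to 5. Each iron library lay below each control library, also among the 10, where the log2 change of -0.82 ± 0.27 did not pass (edgeR adjusted p = 0.0884). In the 7 it fell by 1.12 ± 0.20 (edgeR adjusted p = 0.000560), the largest decrease among the 9 genes. Dhodh had 16.8, 15.7, 23.9, 19.4 and 30.6 CPM with iron, against 14.1, 12.9, 4.50, 13.1 and 14.6 CPM in controls. The iron libraries were higher throughout; the log2 change was 0.84 ± 0.33 in the 10 (edgeR adjusted p = 0.131), and in the 7 the gene rose by 0.33 ± 0.11 (edgeR adjusted p = 0.0264), a call lost without control 2, control 4 or iron 4 (adjusted p 0.0584 to 0.0606). Aifm2 had 25.2, 24.7, 43.8, 22.5 and 27.9 CPM with iron, against 27.7, 28.5, 22.7, 24.3 and 27.5 CPM in controls. The groups overlapped in both fits (log2 change 0.14 ± 0.21, edgeR adjusted p = 0.691 in the 10; -0.16 ± 0.09, edgeR adjusted p = 0.180 in the 7). Its last bases overlap the macroH2A gene H2afy2 on the opposite strand, which had about as many counts in these cells (means of 640.9 for H2afy2 and 632.6 for Aifm2), and reads there cannot be told apart.

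Among the 23 other tested genes of the ubiquinone, biopterin and pyrimidine list, 0 passed in the 10 libraries by edgeR (median log2 change 0.18). Sc5d, a cholesterol synthesis desaturase on that list, had a log2 change of -0.86 ± 0.24 (edgeR adjusted p = 0.0544). At an unadjusted p under 0.05, 5 were higher and 3 lower, and DESeq2 called 3 higher and 3 lower. In the 7, 5 rose and 5 fell (median -0.0097). Cad rose by 0.37 ± 0.07, while Sc5d fell by 0.64 ± 0.09; in the 10 the log2 change of Cad was 0.17 ± 0.21 (edgeR adjusted p = 0.617).

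Ptgs2 spread widely among the iron libraries. It had 551.8, 749.7, 213.2, 445.4 and 35.1 CPM in iron libraries 1 to 5, against 326.6, 376.0, 418.0, 349.3 and 322.3 CPM in control libraries 1 to 5. Iron libraries 1, 2 and 4 stood above every control and iron libraries 3 and 5 below every control. The 10 libraries gave a log2 change of 0.16 ± 0.56 (edgeR adjusted p = 0.879), and in the 7 the gene rose 1.69-fold (0.76 ± 0.13, edgeR adjusted p = 0.000622), a call kept under each omission of 1 library. Of 20 other tested genes of lipid peroxidation and eicosanoids, 3 rose and 1 fell in the 10 libraries (median 0.40), and 7 rose and 4 fell in the 7 (median 0.17). Hpgds and Tbxas1, the synthases of prostaglandin D and thromboxane, which are also expressed in macrophages, rose in both fits; in the 7 Hpgds reached 16.8 CPM with iron, against 2.79 CPM in controls (log2 change 2.60 ± 0.18, and 1.94 ± 0.44 in the 10), and Tbxas1 23.7 CPM, against 7.68 CPM (1.63 ± 0.11, and 1.46 ± 0.25 in the 10). Ptger2, a prostaglandin E receptor, fell by 1.27 ± 0.09 in the 7 and by 1.19 ± 0.16 in the 10. In the 7 Alox12, a lipoxygenase, rose to 3.83 CPM with iron, against 0.48 CPM in controls (2.92 ± 0.35); in the 10 its log2 change of 2.62 ± 1.03 did not pass (edgeR adjusted p = 0.132).

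Of 16 iron pool genes, 0 passed in the 10 libraries by edgeR, with Fbxl5, an iron-sensing ubiquitin ligase subunit, closest (log2 change -0.51 ± 0.15, edgeR adjusted p = 0.0635). At an unadjusted p under 0.05, 3 were higher and 3 lower, and DESeq2 called 1 higher and 2 lower. In the 7, 4 rose and 6 fell (median -0.07). In the 7 Tfrc rose to 149.5 CPM with iron, against 74.1 CPM in controls (log2 change 1.01 ± 0.09), and Pcbp2, an iron chaperone, rose by 0.35 ± 0.07. Hmox1, which frees iron from haem, fell by 0.60 ± 0.07 and Fbxl5 by 0.39 ± 0.08. In the 10, the log2 change was 0.46 ± 0.46 for Tfrc (edgeR adjusted p = 0.536), 0.014 ± 0.35 for Pcbp2 (edgeR adjusted p = 0.982) and -0.59 ± 0.28 for Hmox1 (edgeR adjusted p = 0.196). Of 12 tested marker or modulator genes of ferroptosis, 1 fell in the 10 libraries (median 0.05), and 2 rose and 4 fell in the 7 (median -0.06). Dpp4 fell in both, by 1.01 ± 0.07 in the 7 and 1.35 ± 0.31 in the 10; in the 7 Hspb1 fell by 0.57 ± 0.09 and Acsf2 by 0.53 ± 0.09, and Ddit4 rose by 0.44 ± 0.09. In the 10, Hspb1 had the opposite sign (log2 change 0.73 ± 0.49, edgeR adjusted p = 0.349), and neither Acsf2 (-0.88 ± 0.27, edgeR adjusted p = 0.0744) nor Ddit4 (0.46 ± 0.18, edgeR adjusted p = 0.133) passed. Over all the listed genes, 9.70% of 134 tested were called in the 10 libraries and 49.6% of 135 in the 7, beside 7.42% and 38.1% of all tested genes.

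Macrophage markers moved with iron in the same libraries. All 13 that were tested rose in both fits, and 14 summed to 2181 to 3490 CPM with iron, against 195.6 to 272.1 CPM in controls. Clec4f, C1qa, C1qb and Aif1 were each at 0 counts in 1 control library, and Timd4 in 1 iron and 3 control libraries. Stellate markers went down: 5 of 12 fell in the 10 libraries and 10 in the 7, and their sum was 2638 to 7624 CPM with iron, against 12688 to 19210 CPM in controls (7338 to 7624, against 12688 to 13498 CPM in the 7), with Lrat at 0 counts in 1 iron library. Of 12 endothelial markers, 6 rose in the 10 libraries, and 11 rose and 1 fell in the 7, where they summed to 915.4 to 974.1 CPM with iron, against 704.7 to 774.0 CPM in controls. In the 10 the sums overlapped, at 788.2 to 974.1 CPM with iron and 704.7 to 934.1 CPM in controls. Eng was the largest part of these sums, at 377.1 to 690.8 CPM with iron and 572.7 to 767.7 CPM in controls. Of 12 hepatocyte markers, 1 fell in the 10 libraries, where they summed to 180.3 to 464.2 CPM with iron and 232.6 to 441.4 CPM in controls, and all 12 fell in the 7 (180.3 to 233.0 CPM with iron, against 331.2 to 441.4 CPM in controls). Cholangiocyte markers summed to 227.3 to 822.3 CPM with iron, against 111.0 to 164.2 CPM in controls, and 2 of 4 tested rose in the 10 libraries, and 2 of 5 rose and 1 fell in the 7. Spp1 carried most of this sum, at 152.3 to 799.5 CPM with iron and 96.9 to 146.1 CPM in controls. Krt19 was at 8.77 to 48.1 CPM, against 2.86 to 5.49 CPM, and Sox9 at 3.88 to 8.38 CPM, against 6.06 to 10.4 CPM. Neutrophil markers summed to at most 3.55 CPM in any library and lymphocyte markers to at most 0.88 CPM. The cell make-up of the cultures and the treatment cannot be told apart here, and the part of it in the changes of Ptgs2, Acsl4, Slc7a11 and the other genes was not tested.

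**Figure D4:**
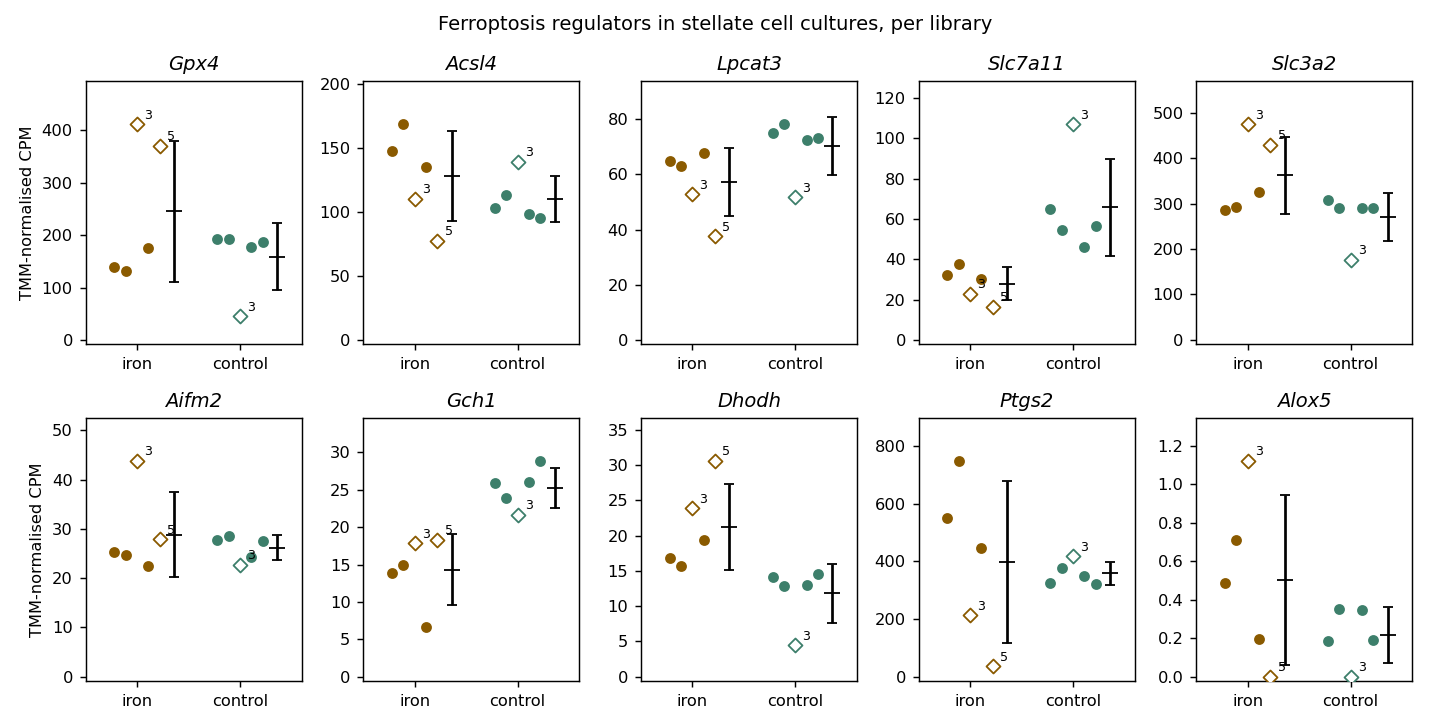
TMM-normalised CPM of the 10 genes in each of 5 iron and 5 control stellate cell libraries, 1 panel per gene; open diamonds numbered 3 and 5 are the libraries that stood apart, and black marks are the mean and SD over all libraries of a group. Slc7a11 and Gch1 are lower in every iron library and Dhodh is higher, whereas the open diamonds of Gpx4 and Ptgs2 lie outside the range of the filled points.

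Set side by side, the log2 change of Acsl4 was 0.59 ± 0.06 with DFO in hepatocytes and 0.55 ± 0.09 with iron in the 7 stellate libraries, and that of Slc7a11 was -0.44 ± 0.08 and -0.73 ± 0.12. Gch1 was at 0.33 ± 0.06 with DFO and -1.12 ± 0.20 with iron in the 7, Dhodh at -0.51 ± 0.06 and 0.33 ± 0.11, and Ptgs2 at -0.70 ± 0.08 and 0.76 ± 0.13. Slc3a2 lay within 0.05 of 0 in both of these fits. With all 10 stellate libraries, the log2 change was 0.22 for Acsl4, -0.82 for Gch1, 0.84 for Dhodh, 0.16 for Ptgs2 and 0.42 for Slc3a2, none of them called. Slc7a11, at -1.23, was called there. Cell type and treatment differ together between these comparisons, so the values stand next to each other without a test of the difference.

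**Figure D5:**
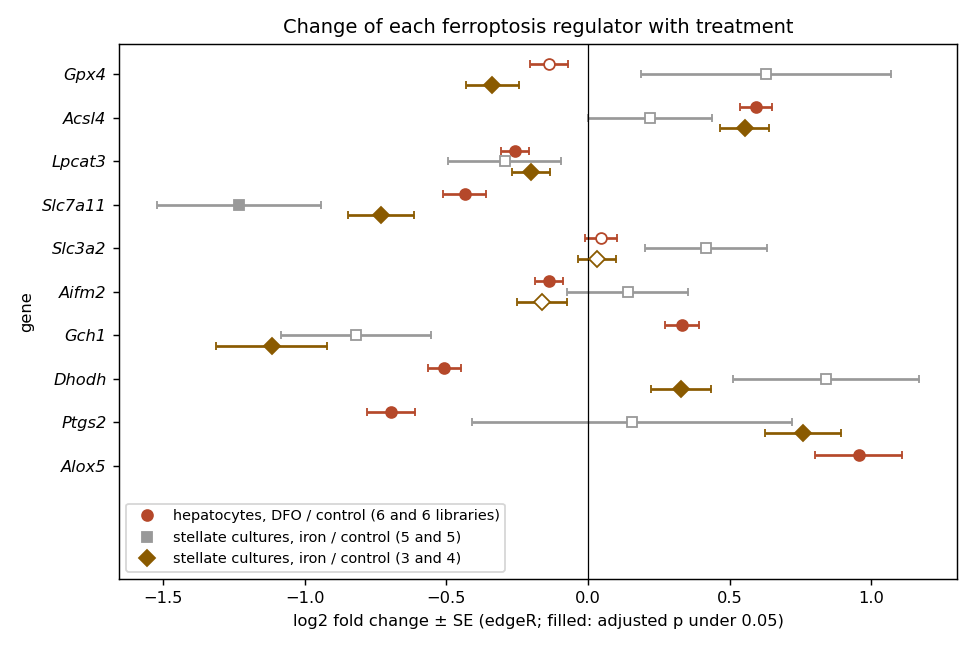
Log2 change of each gene with DFO in hepatocytes and with iron in stellate cells (10 and 7 libraries); bars are SE and filled symbols have an edgeR adjusted p under 0.05. Acsl4 is called higher in hepatocytes and in the 7 stellate libraries, Slc7a11 is called lower in all 3 fits, and Gpx4 lies on opposite sides of 0 in the 2 stellate fits.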

How the data were processed

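The members and the lists of other genes were chosen with earlier results of these data known. The files hold, for 22 libraries, raw counts of reads for each Ensembl gene, beside FPKM, both as the authors deposited them; every FPKM above 1 lay within 1% of the value computed from the count, the exonic length and the library total. The submitters' processing notes name HISAT2 2.0.1, cutadapt 1.9.1 and the mm10 build. Which program counted the reads, on which annotation and with which strand setting, is not given in the sources used here. The labels' protocol names a small RNA kit. Depth, as the total of counts, spanned 19342490 to 41839154 in hepatocyte libraries and 12058226 to 32067635 in stellate libraries. Libraries of a group all differed by more than counting error (chi-square per degree of freedom from 3.23 up in hepatocytes, from 5.28 up in stellate cells).

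Counts were tested with edgeR 4.0.16 in R 4.3.3 (quasi-likelihood, TMM, filterByExpr, p-values adjusted by Benjamini-Hochberg over all tested genes, threshold 0.05), each cell type alone and two-sided. In simulated data, of 50 genes changed 2-fold, the procedure recovered 50 in hepatocytes, 1 in the 10 stellate libraries and 49 in the 7. At 1.5-fold it recovered 50, 0 and 44. False calls made up 6.54%, 3.45% and 6.31% of calls in the simulated data. How many real changes of this size go uncalled in the 10 libraries was not tested. SE is the log2 change over the square root of F. Stellate CPM come from the 10-library normalisation, except means given for the 7. Alternatives were DESeq2 1.42.0, other scalings, no filter, limma 3.58.1 on log2(FPKM + 1) and log2(FPKM + 0.1) with FPKM of at least 0.5, voom with quality weights, a replicate block and single libraries left out; summing Gpx4 with Gpx4-ps2 was added after the data were seen. Other genes named are up to 4 of smallest p per list and, by likeness, 3 for each of the 3 members of smallest p in hepatocytes; some genes that this rule takes are left unnamed here but stay in the counts. The older symbol Tmem189 stands for Peds1 in the files.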

Additional observations from a re-analysis of the deposited data

Results flagged for a closer look

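Values of the 10 genes were screened for a library far from the others of its group, and 6 of 40 groups held one. The rule flags about 1 in 20 by chance, but the 40 groups share the same libraries, so no excess was tested. Of the 6 flagged values, 5 came from stellate libraries that also stood apart in the mean exonic length behind a count. Control stellate library 3 was lowest for Gpx4, at 45.7 CPM with the next library at 176.6 CPM, and for Dhodh, at 4.50 CPM with the next at 12.9 CPM. The same library was lowest for Lpcat3, at 51.7 CPM with the next at 72.6 CPM, and for Slc3a2, at 176.2 CPM with the next at 289.6 CPM. Iron stellate library 3 was highest for Aifm2, at 43.8 CPM with the next at 27.9 CPM. In hepatocytes, DFO library 6 was lowest for Ptgs2, at 18.0 CPM with the next at 24.2 CPM; it also had the lowest mean exonic length of the hepatocyte libraries, 4.73 kb. Without DFO library 6 the log2 change of Ptgs2 was -0.63 ± 0.06 (edgeR adjusted p = 4.37e-08).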

How the results depend on the processing

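In hepatocytes each member kept its direction under the alternatives that tested it; Alox5 lay under the FPKM minimum of both limma fits, which called 2 higher and 6 lower. Omission of 1 library gave 3 higher and 4 to 6 lower. Aifm2 lost its call under the replicate block (adjusted p = 0.0825) and without 5 single libraries; Gpx4 gained one with library totals (log2 -0.17), both limma fits (-0.18), voom weights (-0.16) and without control 6 or DFO 6 (-0.17). In the 10 stellate libraries, members lower were 2 with DESeq2, 4 with voom weights and with the 7 libraries (higher 3 in both), 0 under the replicate block, and 0 to 2 with 1 library omitted. Ptgs2 reversed with limma (log2 -0.37 and -0.40), the block (-0.30) and without iron 2 (-0.20, up to 0.45 over omissions); Aifm2 with voom weights (-0.10), without iron 3 (-0.062, up to 0.21 over omissions) and in the 7 (-0.16); Gpx4 with voom weights (-0.37) and in the 7 (-0.34). In the 7, members lower were 2 to 4 and higher 2 to 3 with 1 library omitted; Slc3a2 reversed with voom weights (-0.019) and without iron 4 (-0.013, up to 0.082 over omissions). The cause was not tested. Lpcat3 lost its call in the 7 with upper-quartile scaling (adjusted p = 0.0519), library totals (0.134), no filter (0.0578), limma (0.0817 and 0.0823) and the block (0.0895), and Dhodh with no filter (0.0539) and the block (0.0506). Same-numbered libraries did not in general deviate together. Correlations were -0.387 to 0.0332 in hepatocytes, and -0.493 to 0.216 and -0.107 to 0.0472 in the stellate fits. Only iron 5 was closest to its own number, control 5 (0.216 in the 10). No pairing by number was seen, but these few correlations cannot exclude one, and no label settles it. The block left Slc7a11 uncalled in the 10 (adjusted p = 0.159). Called over all genes in the 10 were 628 higher and 523 lower, against 1635 and 1289 with DESeq2, 3055 and 3264 with voom weights and 107 and 68 under the block. Library totals moved the split of calls to 3747 higher and 2579 lower in the 7, against 2988 and 3224, and limma on log2(FPKM + 1) moved it to 3366 and 2353; in hepatocytes that limma fit gave 3155 higher and 4789 lower, against 4375 and 4713. Summing Gpx4 with its pseudogene, chosen after seeing the data, changed no call of a member. Alox5 rests on few counts, with at most 23 in a stellate library.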
